A study of Mus musculus with 3 samples.

Results

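The genes described here are 10 subunits of the Polycomb repressive complexes in mouse blastocysts: Ezh2, Eed, Suz12, Jarid2, Mtf2, Rnf2, Kdm2b, Pcgf6, Rybp and Cbx2. They are known parts of the complexes and were found by symbol among the 24063 genes of the count table. Each of the 10 was found and passed the filter on low counts, which left 14456 genes for testing. Expression was compared between blastocysts of C57BL/6 mice (B6, 1 library), a strain that does not develop autoimmune diabetes, and of NOD mice (2 libraries), a diabetes-prone strain. No treatment, genetic modification or embryonic day is given for any library. The labels give whole blastocysts as the input, whereas the methods of the study describe single inner cell masses (ICM), so the values are not assigned to a compartment of the embryo.

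Polycomb proteins keep developmental genes silent. Polycomb repressive complex 2 (PRC2) methylates lysine 27 of histone H3, and Polycomb repressive complex 1 (PRC1) attaches ubiquitin to histone H2A and compacts chromatin. In embryonic stem cells and early embryos both complexes sit on CpG-rich promoters of lineage regulators, including the Hox genes, and mouse embryos without Ezh2, Eed, Suz12 or Rnf2 die early in development.

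The B6 library held 12505685 counts on genes, NOD 1 held 33891715 and NOD 2 held 36171013. With 1 B6 library, the spread between replicates was known for NOD only, so that the p-values measure only the spread between these NOD libraries, which may be technical, and B6 was assumed to vary like them. An exact permutation test of 1 library against 2 cannot give a p below 0.333. Of the genes tested with edgeR's quasi-likelihood test, 10.3% were up-regulated and 7.39% down-regulated in NOD (adjusted p under 0.05 and at least 2-fold), 17.7% in either direction. The higher genes made up 58.1% of these calls, and 47.8% when libraries were scaled by their total counts alone. The median gene was 0.26 higher in NOD on the log2 scale, or 0.07 with total counts alone, beside which the fold changes here are read. Values are given as TMM-scaled CPM (counts relative to library size), and levels of different genes are compared as FPKM, which divides by transcript length. A gene with a count of 0 could still lie at up to 3 counts, which is a floor of 0.220 CPM in B6 and of 0.0908 and 0.0882 CPM in NOD 1 and NOD 2, and covers counting error only.

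Among the 10 subunits, Jarid2 was down-regulated in NOD blastocysts and no subunit was up-regulated with edgeR's quasi-likelihood test as set here. Unadjusted p-values were under 0.05 for 5 subunits, as they were for 5763 of the 14456 genes tested. DESeq2 called 2 of the 10 up-regulated (Ezh2 and Cbx2) and limma-voom 0. The exact test of edgeR, its legacy quasi-likelihood test and its default dispersion each called 1 (Ezh2). Over the 14456 genes tested, the same settings in this order called 2346, 0, 2188, 1994 and 1231 up-regulated. Both NOD libraries lay above B6 for 7 subunits (Ezh2, Eed, Suz12, Rnf2, Kdm2b, Pcgf6 and Cbx2) and below B6 for 2 (Jarid2 and Mtf2), and B6 lay between the NOD libraries for Rybp. Over all genes tested, both NOD libraries lay above B6 for 45.3% and below it for 39.4%. The median log2 fold change of the 10 subunits was 0.31, beside 0.26 over all genes tested. Their median transcript length was 4044 bases, beside 2642 over all genes tested, and fold changes moved with length (below). Against the medians of their length classes, the 10 subunits differed by a median of 0.42. The NOD libraries differed from each other by a median of 0.296 on the log2 scale over the 10 subunits, from 0.0344 for Kdm2b to 0.421 for Ezh2, and by 0.471 over all genes tested.

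**Figure D1:**
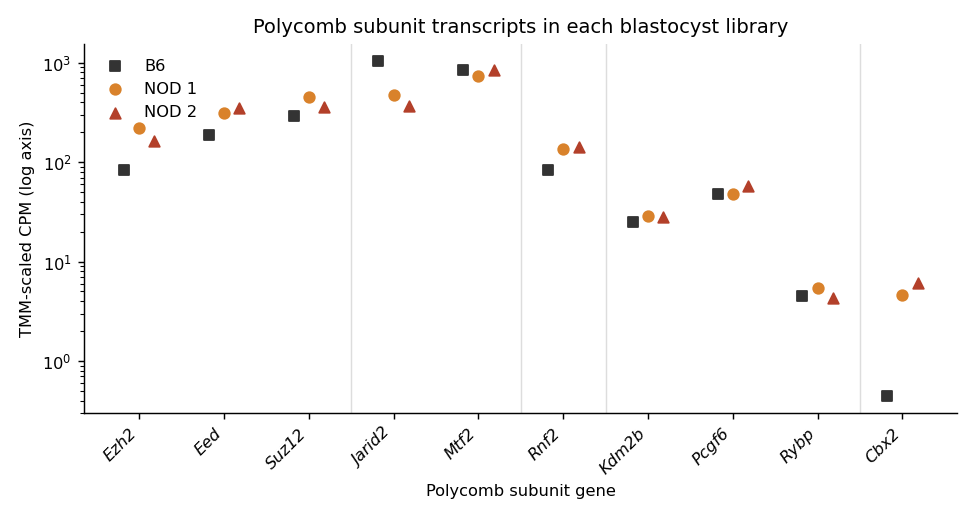
TMM-scaled CPM (log axis) of the 10 Polycomb subunit genes in the B6 library (squares), NOD 1 (circles) and NOD 2 (triangles), 1 point per library, with grey lines between PRC2 core, PRC2 accessory, PRC1 catalytic, variant PRC1 and canonical PRC1 subunits. Jarid2 falls from 1045 CPM in B6 to 476.2 and 367.6 in NOD, whereas Cbx2 lies at 0.440 CPM in B6 and at 4.66 and 6.02 in NOD.

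The promoters of the 3 core PRC2 genes are shown because their products act as 1 enzyme, and that of Jarid2 because it was the subunit that fell. They run from 250 bases before to 50 after the annotated start (RefSeq, GRCm38.p6), and are written 5′ to 3′ on the strand of the gene. The intervals are chr6:47594981-47595280 on the minus strand for Ezh2, chr7:89980927-89981226 on the minus strand for Eed, chr11:79992856-79993155 on the plus strand for Suz12, and chr13:44730524-44730823 on the plus strand for Jarid2. Capitals mark TTTGGCGC or TTTCCCGC, 2 words bound by E2F factors, searched on both strands.
Ezh2: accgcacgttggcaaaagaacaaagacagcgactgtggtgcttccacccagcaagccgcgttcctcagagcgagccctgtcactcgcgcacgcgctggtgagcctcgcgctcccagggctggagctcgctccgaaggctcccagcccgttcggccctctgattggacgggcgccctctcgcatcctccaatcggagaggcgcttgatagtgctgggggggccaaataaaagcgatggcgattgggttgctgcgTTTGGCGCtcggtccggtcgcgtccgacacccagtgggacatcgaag
Eed: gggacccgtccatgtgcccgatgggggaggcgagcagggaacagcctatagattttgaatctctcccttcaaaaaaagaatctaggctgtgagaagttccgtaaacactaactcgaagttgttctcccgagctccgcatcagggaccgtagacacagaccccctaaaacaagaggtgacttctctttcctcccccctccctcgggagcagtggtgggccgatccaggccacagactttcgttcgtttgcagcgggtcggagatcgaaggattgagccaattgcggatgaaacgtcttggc
Suz12: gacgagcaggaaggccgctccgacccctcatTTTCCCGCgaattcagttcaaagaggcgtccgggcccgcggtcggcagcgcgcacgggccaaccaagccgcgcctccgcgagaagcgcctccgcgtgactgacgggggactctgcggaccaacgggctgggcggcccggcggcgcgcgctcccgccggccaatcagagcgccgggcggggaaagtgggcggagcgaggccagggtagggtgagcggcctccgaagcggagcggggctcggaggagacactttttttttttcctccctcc
Jarid2: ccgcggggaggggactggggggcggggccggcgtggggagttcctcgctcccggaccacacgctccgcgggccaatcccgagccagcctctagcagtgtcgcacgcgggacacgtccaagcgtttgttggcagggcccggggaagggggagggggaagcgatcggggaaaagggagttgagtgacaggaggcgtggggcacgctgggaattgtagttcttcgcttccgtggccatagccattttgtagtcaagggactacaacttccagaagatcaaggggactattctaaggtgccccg
The word TTTGGCGC began at position 4 of the Ezh2 transcript, and TTTCCCGC began at position -219 from the start of Suz12. Neither word was in the windows of Eed and Jarid2, nor in those of Mtf2, Rnf2, Kdm2b and Pcgf6, which are not shown. Of 27025 RefSeq promoters of this length, 1.63% held at least 1 of the words. RefSeq promoters were found for 8 of the 10 subunits, Rybp and Cbx2 being the others. CpG dinucleotides numbered 31 in the window of Ezh2, 17 in Eed, 41 in Suz12, 24 in Jarid2, 30 in Mtf2, 30 in Rnf2, 28 in Kdm2b and 22 in Pcgf6, against a median of 7 over all promoters.

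The core of PRC2 is formed by EZH2, which carries the methyltransferase, EED, which binds methylated histone H3, and SUZ12, the scaffold. All 3 core genes were higher in both NOD libraries than in B6, and none of them passed the threshold. Ezh2 (chr6:47530274-47595030, minus strand) was at 83.9 CPM in B6 compared with 220.5 in NOD 1 and 164.8 in NOD 2. The groups did not overlap, and the NOD libraries differed more for Ezh2 than for any other of the 10 subunits. Its log2 fold change was 1.20 (SE 0.31, edgeR adjusted p = 0.0611). Ezh2 was called up-regulated under 4 of 9 other settings of test, scaling and filter, with an adjusted p between 0.00452 and 0.144 over the 9.

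Eed (chr7:89954654-89980976, minus strand) was at 189.0 CPM in B6, against 314.7 in NOD 1 and 346.4 in NOD 2. Both NOD libraries were higher than B6 and close to each other, at 330.6 ± 22.4 CPM (SD, n = 2), and the log2 fold change was 0.81 (SE 0.24, edgeR adjusted p = 0.0749). Suz12 (chr11:79993106-80034123, plus strand) was at 294.1 CPM in B6 and at 446.6 and 354.7 in NOD 1 and NOD 2. The distance of NOD 2 from B6 was smaller than that between the NOD libraries, and the log2 fold change was 0.45 (SE 0.25, edgeR adjusted p = 0.249). Of the 50-base words of its transcript, 10.5% for Eed, 3.03% for Suz12 and 1.61% for Ezh2 also occurred in transcripts of another gene (GENCODE M21), and reads on these stretches cannot be assigned to 1 gene.

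Ezh1, the paralog of Ezh2 with weaker methyltransferase activity, was at 16.8 CPM in B6 compared with 14.8 in NOD 1 and 18.5 in NOD 2. B6 lay between the NOD libraries, and the log2 fold change was -0.01 (SE 0.46), or 0.01 with no filter on low counts. Per transcript length, Ezh2 was 7.92 times as abundant as Ezh1 in B6, 23.6 times in NOD 1 and 14.2 times in NOD 2. The histone-binding subunit gene Rbbp7, named here after its values were seen, was at 493.0 CPM in B6, against 692.8 in NOD 1 and 1779 in NOD 2, so that NOD 2 lay farther from NOD 1 than NOD 1 from B6. Rbbp7 lies on the X chromosome, and the methods of the study give no sex for the embryos. Rbbp4, the paralog of Rbbp7, was at 229.5, 160.0 and 203.6 CPM in B6, NOD 1 and NOD 2.

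The accessory subunits bring PRC2 to its sites and set it apart into subcomplexes. JARID2, which joins PRC2 together with AEBP2, binds nucleosomes and stimulates the enzyme, and MTF2 binds CpG-rich DNA. Jarid2 (chr13:44730774-44921643, plus strand) was at 1045 CPM in B6 and at 476.2 and 367.6 in NOD 1 and NOD 2, from 14243, 15739 and 12507 counts. B6 was the highest library, and its distance from either NOD library exceeded that between them. Jarid2 fell by 1.31 on the log2 scale (SE 0.24, edgeR adjusted p = 0.0335), to 0.404 of its B6 level. The difference was -1.13 with NOD 1 alone and -1.51 with NOD 2 alone. The call was kept under 7 of 9 other settings and lost with no filter on low counts (adjusted p = 0.0769) and with limma-voom (adjusted p = 0.0705), the adjusted p over the 9 ranging from 4.51e-05 to 0.0769. No 50-base word was shared with another gene in the GENCODE transcript searched, of 4135 bases, which is shorter than the 5649 bases listed for the counts.

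Fold changes also moved with transcript length. The median log2 fold change was 0.79 for genes of 1001 to 2000 bases and -0.36 for those of 5001 to 8000 bases, the class of Jarid2 (5649 bases), in which 9.90% of genes were down-regulated and 3.56% up-regulated. From the medians of their length classes, Jarid2 differed by -0.95, Ezh2 by 0.79, Eed by 0.39, Suz12 by 0.46 and Mtf2 by -0.08. Rnf2 differed by 0.75, Kdm2b by 0.55, Pcgf6 by -0.27, Rybp by 0.09 and Cbx2 by 3.60. The part of length in these values was not tested.

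Mtf2 (chr5:108065674-108109219, plus strand) was at 840.1 CPM in B6 compared with 735.8 in NOD 1 and 838.6 in NOD 2. NOD 2 was level with B6, and the log2 fold change was -0.09 (SE 0.20, edgeR adjusted p = 0.747), with 8.68% of its 50-base words shared with other genes (Tmed5 among them). Its paralogs Phf1 and Phf19, which join PRC2 in its place, were low. Phf1 was at 1.10 CPM in B6, against 2.27 in NOD 1 and 0.970 in NOD 2, and 17.9% of its 50-base words were shared with other genes. Phf19 was at 6.24, 3.39 and 1.15 CPM in the same order, and neither paralog passed the threshold (edgeR adjusted p = 0.767 and 0.307).

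Another accessory gene of the MTF2 subcomplex, Epop (E130012A19Rik in the table), whose product limits PRC2 binding and interacts with elongin, was down-regulated in NOD. It was at 111.2 CPM in B6 and at 22.1 and 17.4 in NOD 1 and NOD 2, with both NOD libraries far below B6. Its log2 fold change was -2.49 (SE 0.35, edgeR adjusted p = 0.0242). Aebp2, the partner of Jarid2, was at 104.1 CPM in B6 compared with 105.7 in NOD 1 and 85.1 in NOD 2 (log2 fold change -0.13, SE 0.31). Of the 10 PRC2 genes outside the chosen subunits, 1 was down-regulated (Epop) and 0 were up-regulated with edgeR (1 had an unadjusted p under 0.05), beside 7.39% down-regulated over all genes tested, and their median log2 fold change was -0.07.

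**Figure D2:**
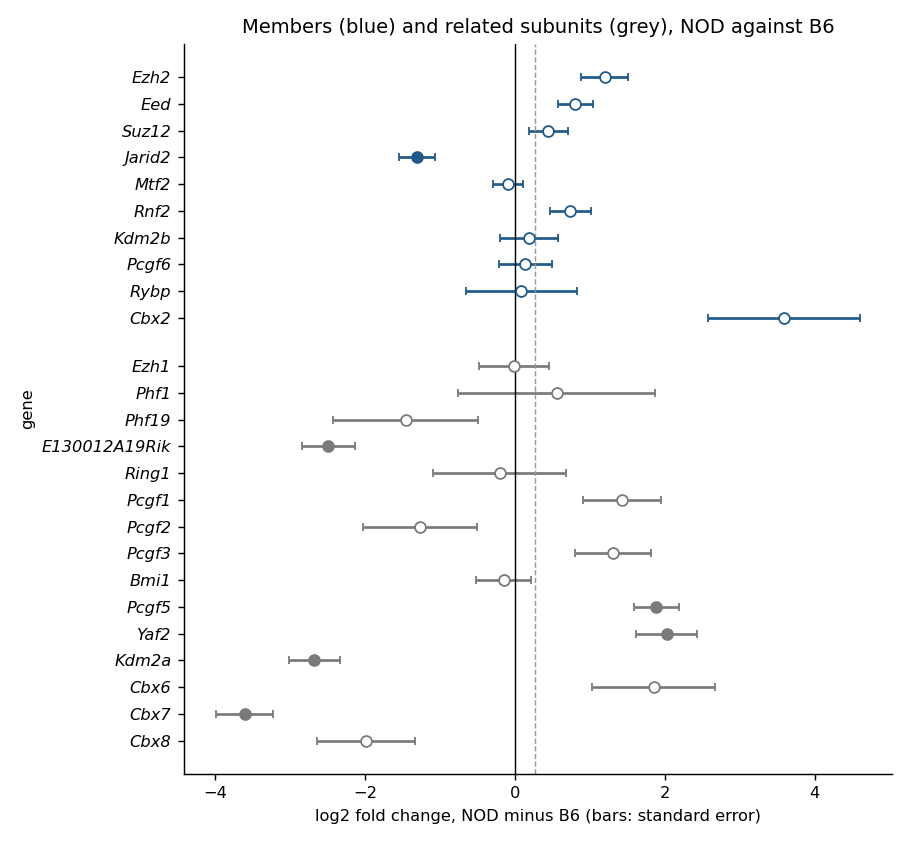
Log2 fold change, NOD minus B6, with its standard error (bars), for the 10 subunits (blue) and for paralogs and Epop (E130012A19Rik, grey). Filled points passed the threshold, the dashed line marks the median of all genes tested (0.26), and Jarid2 at -1.31 is the only filled blue point, beside Epop, Pcgf5, Yaf2, Kdm2a and Cbx7 in grey.

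PRC1 is built on RNF2 (RING1B), the ubiquitin ligase present in its canonical and variant forms. Rnf2 (chr1:151469406-151500823, minus strand) was at 83.5 CPM in B6, against 136.8 in NOD 1 and 141.5 in NOD 2. The NOD libraries were nearly level, at 139.2 ± 3.31 CPM (SD, n = 2), and both lay above B6. The log2 fold change of 0.74 (SE 0.27) did not pass the threshold (edgeR adjusted p = 0.119). Ring1, its paralog, was at 3.23 CPM in B6 and at 3.15 and 2.47 in NOD 1 and NOD 2 (log2 fold change -0.20, SE 0.89). Per transcript length, Rnf2 was 17.3, 29.2 and 38.5 times as abundant as Ring1 in B6, NOD 1 and NOD 2.

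Variant PRC1 complexes hold RYBP or YAF2 in place of a CBX protein, and a PCGF protein gives each its identity. KDM2B carries a domain that binds unmethylated CpG dinucleotides and brings the complex of PCGF1 to promoters, and PCGF6 works with the DNA-binding factors MGA, MAX and E2F6. The 3 variant subunits among the chosen genes lay close to their B6 levels in NOD. Kdm2b (chr5:122870675-122989092, minus strand) was at 25.0 CPM in B6 compared with 28.7 in NOD 1 and 28.0 in NOD 2. Pcgf6 (chr19:47033619-47050845, minus strand) was at 47.6, 47.7 and 57.1 CPM, with NOD 1 level with B6. Rybp (chr6:100228565-100287358, minus strand) was at 4.55, 5.39 and 4.26 CPM, with B6 between the NOD libraries.

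The log2 fold changes were 0.18 (SE 0.39) for Kdm2b, 0.14 (SE 0.36) for Pcgf6 and 0.08 (SE 0.74) for Rybp (edgeR adjusted p = 0.740, 0.786 and 0.940). Each was below the median of all genes tested, and with total counts alone they became -0.0017, -0.05 and -0.10. Against their own length classes, Kdm2b differed by 0.55, Pcgf6 by -0.27 and Rybp by 0.09. The depth at Rybp, 62 counts in B6 compared with 178 in NOD 1 and 145 in NOD 2, limits what could be detected there. For Kdm2b, 23.8% of the 50-base words were shared with other genes (Rnf34 among them), and 9.50% for Rybp, with its pseudogene Rybp-ps.

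Paralogs of Rybp and Kdm2b passed the threshold, 1 in each direction. Yaf2, the paralog of Rybp, was at 12.8 CPM in B6, against 56.3 in NOD 1 and 48.0 in NOD 2. The RefSeq transcript listed for its counts is of the non-coding class. It has 2313 bases, beside 1873 for all exons of the gene in GENCODE M21. Both NOD libraries were above B6, and Yaf2 was up-regulated (log2 fold change 2.02, SE 0.41, edgeR adjusted p = 0.0395), although not with total counts alone (adjusted p = 0.0521, range over the 9 other settings 0.000475 to 0.109). Kdm2a, the paralog of Kdm2b with the same kind of CpG-binding domain, was at 109.6 CPM in B6 and at 17.9 and 16.4 in NOD 1 and NOD 2. It was down-regulated, with both NOD libraries far below B6 (log2 fold change -2.67, SE 0.34, edgeR adjusted p = 0.0224), in a transcript of 7242 bases whose length class had a median of -0.36.

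Among the PCGF genes, Pcgf5, which assembles a variant complex, was at 42.1 CPM in B6 compared with 148.2 in NOD 1 and 162.6 in NOD 2. It was up-regulated (log2 fold change 1.89, SE 0.30, edgeR adjusted p = 0.0277), with both NOD libraries above B6. Pcgf1 and Pcgf3 were also higher in both NOD libraries without passing the threshold. Pcgf1 was at 6.46, 16.4 and 18.4 CPM in B6, NOD 1 and NOD 2 (edgeR adjusted p = 0.114), with 33.3% of its 50-base words shared with another gene. Pcgf3 was at 8.73, 18.4 and 24.9 CPM (edgeR adjusted p = 0.128). Both genes of canonical complexes lay below B6 in each NOD library, Pcgf2 (Mel18) being at 13.7, 8.20 and 3.15 CPM and Bmi1 (Pcgf4) at 41.7, 41.1 and 33.9 CPM in the same order (edgeR adjusted p = 0.268 and 0.775), and Bmi1 shared 18.5% of its 50-base words with other genes.

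CBX proteins bind trimethylated lysine 27 of histone H3 and bring canonical PRC1 to sites marked by PRC2. Cbx2 (chr11:119023029-119031270, plus strand), which also compacts nucleosomes, had 6 counts in B6, against 154 in NOD 1 and 205 in NOD 2, or 0.440, 4.66 and 6.02 CPM. B6 lay above its floor of 0.220 CPM and below both NOD libraries. The ratio of the pooled NOD counts to B6, each relative to its effective library size, was 12.2 (95% exact Clopper-Pearson interval 5.53 to 33.3, counting error only). The fitted log2 fold change of 3.59 (SE 1.02) did not pass the threshold (edgeR adjusted p = 0.0706), and among the 9 other settings it was called with DESeq2 alone (adjusted p = 0.0434, range 0.0434 to 0.413).

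Cbx7, the main CBX gene of undifferentiated embryonic stem cells, was at 105.0 CPM in B6, against 9.86 in NOD 1 and 7.41 in NOD 2. It was down-regulated in NOD, with both libraries far below B6 (log2 fold change -3.60, SE 0.38, edgeR adjusted p = 0.0203). Cbx8 was at 11.4, 3.09 and 2.67 CPM and did not pass the threshold (log2 fold change -1.99, SE 0.65, edgeR adjusted p = 0.0929). Cbx6 was low in each library, at 1.69, 6.69 and 5.53 CPM in the same order (edgeR adjusted p = 0.165).

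Per transcript length, the order of the 10 subunits in B6 began with Jarid2 (201.6 FPKM) and Mtf2 (195.3), followed by Eed (100.6), Suz12 (73.6), Ezh2 (34.8), Rnf2 (30.1), Pcgf6 (24.9), Kdm2b (5.29), Rybp (1.14) and Cbx2 (0.129). With the exon-union length of GENCODE M21 in place of the listed one, Mtf2 led Jarid2 in B6, at 2.48 and 1.81 times Suz12. In NOD with the listed length, Mtf2 (160.7 ± 10.8 FPKM, SD, n = 2) and Eed (154.6 ± 6.56) led, and their libraries overlapped. Suz12 (88.3 ± 16.5), Jarid2 (71.7 ± 14.8) and Ezh2 (70.4 ± 16.2) followed, also with overlapping libraries. Rnf2 (44.2 ± 0.072), Pcgf6 (24.0 ± 2.45) and Kdm2b (5.29 ± 0.224) were separate from their neighbours in this order. Cbx2 (1.37 ± 0.213) and Rybp (1.06 ± 0.201) came last, with Cbx2 from 1.22 to 1.52 FPKM and Rybp from 0.918 to 1.20. Among the genes tested, the percentile of Jarid2 was 96.1 in B6, 89.4 in NOD 1 and 86.4 in NOD 2, and that of Ezh2 was 80.1, 89.3 and 86.1.

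Ratios of subunits within a library do not depend on how libraries are scaled, and are given as a description. Jarid2 stood at 2.74 times Suz12 in B6 and at 0.822 times in NOD 1 and 0.799 times in NOD 2, so that the accessory gene exceeded the scaffold gene in B6 and not in NOD. With the exon-union length of GENCODE M21 in place of the listed length, these ratios were 1.81, 0.543 and 0.527. Jarid2 and Suz12 lie in different length classes, with median log2 fold changes of -0.36 and -0.01. The part of length in this change of order was not tested. Mtf2 stood at 2.65 times Suz12 in B6, 1.53 times in NOD 1 and 2.2 times in NOD 2, above 1 in each library. Ezh2 stood at 0.472, 0.818 and 0.769 times Suz12 in B6, NOD 1 and NOD 2, and Eed at 1.37, 1.5 and 2.08 times. Kdm2b was the less abundant of the pair with Kdm2a in B6 (ratio 0.321) and the more abundant in NOD (2.26 and 2.4). Cbx7 stood at 308.7 times Cbx2 in B6 (95% counting interval 141 to 843, from 6 counts of Cbx2), at 2.74 times in NOD 1 and at 1.59 times in NOD 2. With the exon-union length these ratios were 156.5, 1.39 and 0.807, so that the order of the pair turned in NOD 2. Yaf2 stood at 5.33 times Rybp in B6, 19.8 times in NOD 1 and 21.3 times in NOD 2.

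**Figure D3:**
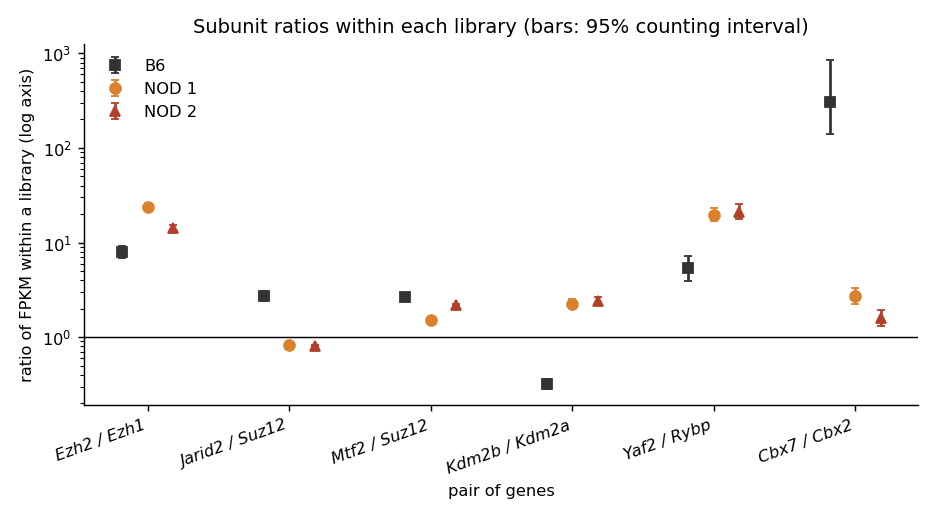
Ratio of FPKM (log axis) of 6 pairs of subunit genes within B6 (squares), NOD 1 (circles) and NOD 2 (triangles), with 95% counting intervals (bars). Jarid2 to Suz12 crosses 1 from 2.74 in B6 to 0.822 and 0.799 in NOD, and Kdm2b to Kdm2a crosses it the other way, from 0.321 to 2.26 and 2.4.

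Beyond the 10 subunits, 4 lists of related genes were counted, of which 69 of 71 genes were tested and 4 rose and 11 fell, beside 10.3% up-regulated and 7.39% down-regulated over all genes tested. Of 33 other PRC1 genes tested, 4 were up-regulated and 2 down-regulated, with a median log2 fold change of -0.20. The 4 that rose were Pcgf5, Yaf2, Skp1a (log2 fold change 1.22, SE 0.23), an adaptor in the KDM2B complex and in many other ubiquitin ligases, and Hdac2 (1.52, SE 0.23), a histone deacetylase shared with several repressor complexes (edgeR adjusted p = 0.0354 and 0.0257). The listed transcripts of Pcgf5, Skp1a and Hdac2 have 1001 to 2000 bases, a class with a median of 0.79 and 16.2% up-regulated. These genes lay 1.09, 0.43 and 0.73 above that median. For Pcgf5 the class rests on a listed length of 1498 bases, beside 12629 for all its exons in GENCODE M21. The part of length in these values was not tested. The call of Skp1a was lost with upper-quartile factors (adjusted p = 0.0528, range over the 9 other settings 0.000235 to 0.0805). The 2 that fell were Cbx7 and Kdm2a. Of the 10 genes tested for PR-DUB, the complex that removes ubiquitin from histone H2A, 2 fell and 0 rose with edgeR (4 had an unadjusted p under 0.05): Asxl1 (-1.66, SE 0.39) and Asxl2 (-1.60, SE 0.37), paralogous cofactors of the deubiquitinase BAP1 (edgeR adjusted p = 0.0495 and 0.0488). Both calls were lost with upper-quartile factors (adjusted p = 0.0584 for Asxl1 and 0.0577 for Asxl2, ranges over the 9 other settings 0.00459 to 0.0986 and 0.00455 to 0.0961).

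The list of H3K27 demethylases and trithorax genes holds genes whose products oppose Polycomb, among them enzymes that remove its methyl mark or methylate lysine 4 of histone H3. Of its 16 genes, 6 fell, 0 rose and 10 were not called with edgeR (12 had an unadjusted p under 0.05), beside 7.39% down-regulated over all genes tested. Both NOD libraries lay below B6 for 14 of the 16, beside 39.4% over all genes tested, and the median log2 fold change was -1.45. Kmt2d, a methyltransferase of enhancers, was at 62.7 CPM in B6 and at 8.59 and 7.11 in NOD 1 and NOD 2 (log2 fold change -3.0, SE 0.39, edgeR adjusted p = 0.0231). Kdm6b, an H3K27 demethylase, was at 196.9, 50.8 and 34.1 CPM (log2 fold change -2.21, SE 0.35, edgeR adjusted p = 0.0275). The methyltransferase genes Setd1b (-2.74), Kmt2a (-2.71), Kmt2b (-2.01) and Kmt2c (-1.75) were the others that fell. Kmt2c was not called with upper-quartile factors (adjusted p = 0.0575, range over the 9 other settings 3.03e-05 to 0.0961). The 12 genes of this list over 5000 bases were lower in both NOD libraries, with a median of -1.77, and genes over 8000 bases had a median of -0.63 with 14.2% down-regulated. Dpy30, of 697 bases, was at 328.7 CPM in B6 compared with 632.4 in NOD 1 and 565.1 in NOD 2 (log2 fold change 0.87, SE 0.22, edgeR adjusted p = 0.0586). The part of transcript length in these values was not tested.

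**Figure D4:**
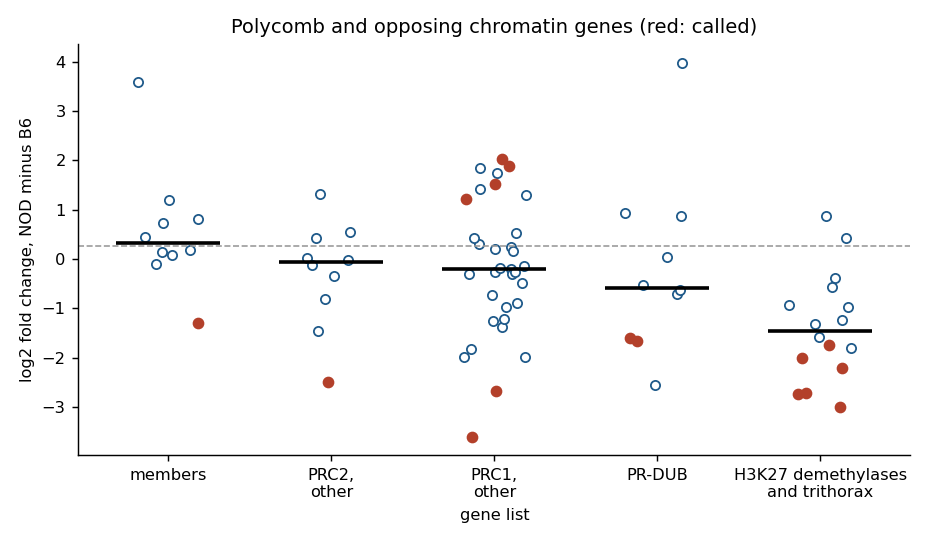
Log2 fold change, NOD minus B6, of each tested gene of 5 lists, with the median of each list (black bars), genes that passed the threshold (red) and the median of all genes tested (dashed line, 0.26). The medians run from 0.31 for the 10 subunits to -1.45 for the H3K27 demethylases and trithorax genes, whose 6 red points all lie below 0.

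**Figure D5:**
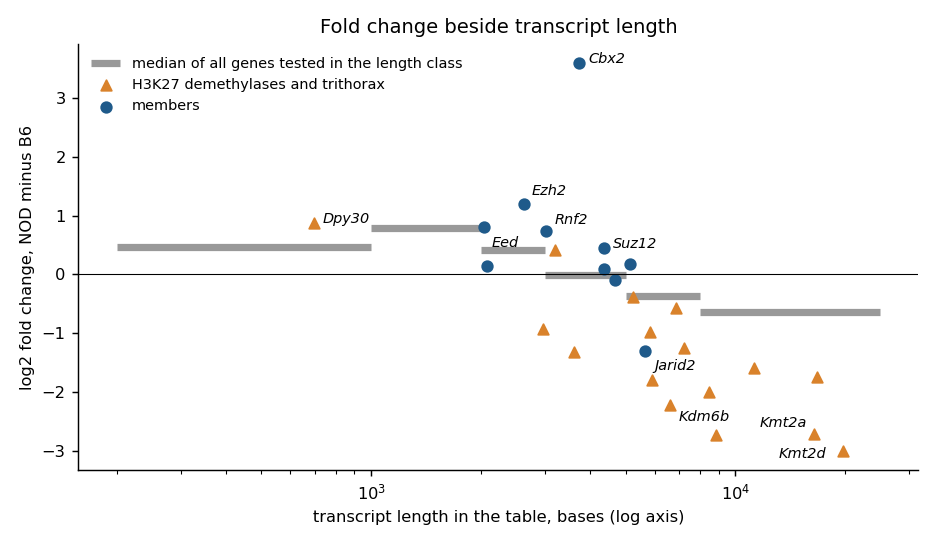
Log2 fold change, NOD minus B6, against the transcript length in the table (log axis) for the 10 subunits (circles) and the H3K27 demethylases and trithorax genes (triangles), over the median of all tested genes in each of 6 length classes (grey bars). The class medians go from 0.79 at 1001 to 2000 bases to -0.63 above 8000 bases, and Jarid2 at 5649 bases lies below its class median of -0.36.

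Summed levels of cell type markers also differed between the libraries. Summed over 9 ICM markers, levels were at 1282 CPM in B6, against 2854 in NOD 1 and 3832 in NOD 2, with 3 markers up-regulated (Tdgf1, Zfp42 and Dppa5a) and 1 down-regulated (Sox2). Both NOD libraries lay above B6 for 6 of these markers and below it for 3, and Dppa5a alone made up 848.6, 2251 and 2966 CPM of the sums. Summed over 9 trophectoderm markers, levels were at 3042 CPM in B6 and at 1737 and 1606 in NOD 1 and NOD 2. Of the 8 trophectoderm markers tested, 7 were lower in both NOD libraries and 0 were called by edgeR, 6 having an unadjusted p under 0.05, and Elf5 had 0 counts in B6 alone. Primitive endoderm markers summed to 762.7, 769.1 and 982.7 CPM, with 1 of 6 tested markers up-regulated (Pdgfra) and 1 down-regulated (Gata6), and Foxa2 was at 0 in each library. Leukocyte markers summed to at most 1.03 CPM, and 5 of 7 cumulus cell markers were at 0 in each library, with a sum of at most 0.147 CPM. In such bulk libraries fewer cells of a type and less RNA per cell cannot be told apart, and the part of cell composition in the values of the Polycomb genes was not tested.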

How the data were processed

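The authors prepared low-input libraries with SMART-Seq V4, amplified the cDNA by PCR without molecular identifiers, used STAR to place the single-end 50-base reads on mm10 and HOMER to count them on RefSeq exons, on both strands together and with 1 transcript per gene. The STAR version differs between the submitters' processing notes (2.2.0c) and the methods. The deposited values are raw counts per gene, without normalization. Reads of both strains were aligned to the B6 reference, and the effect on NOD counts was not tested. The handling of multi-mapping reads is not given in the sources used here.

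Members were matched by symbol, and the members and gene lists were chosen with earlier results of these data known. Genes with enough counts (filterByExpr, minimum count 10) were scaled by TMM factors and tested with edgeR 4.0.16 in R 4.3.3 (glmQLFit with trended dispersion and legacy set to false, prior count 0.125), adjusting p-values by the Benjamini-Hochberg method over 14456 genes. SEs were derived from the F statistics of the fold changes. Calls required a 2-fold change and an adjusted p under 0.05. The residual degree of freedom was 1 and the median biological coefficient of variation 0.374. FPKM was computed from the counts on genes and the listed length. The test was checked on simulated data in which B6 and NOD were given the same spread. Such data cannot check the assumption that B6 varies like NOD. Alternatives used DESeq2 1.42.0, limma 3.58.1, other scalings, no filter and each NOD library alone, and tables were made in Python 3.11.15 with pandas 2.3.3.

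Named genes were all members, their paralogs, and the called genes of the Polycomb, trithorax and developmental target lists. Rbbp4, Rbbp7, Aebp2, Dpy30 and the markers and Hox genes given by name were named after their values were seen. The results for 2 genes are not reported here. Shared words of 50 bases were counted in 1 transcript per gene of GENCODE M21, whose length can differ from the listed one. The gene spans of this annotation overlap those of the table for 98.6% of 22840 genes found in both.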

Additional observations from a re-analysis of the deposited data

How the results depend on the processing

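The spread was known from 1 pair of NOD libraries, and the B6 library held the fewest counts. No paired analysis was possible because B6 has 1 library, so that the strains share at most 1 replicate number. Jarid2 was lower in NOD under each setting run. With no filter on low counts or with limma-voom no gene at all was called (0 up, 0 down over all genes, the 10 subunits and the 71 related genes), the lowest adjusted p being 0.0649 and 0.0501, although 5568 and 3924 genes had an unadjusted p under 0.05. Over all genes, DESeq2 called 2346 up and 1864 down, edgeR's exact test 2188 and 1975, its legacy quasi-likelihood test 1994 and 1612, and upper-quartile factors 1016 and 701. Of the 10 subunits, the exact test, the legacy test and edgeR's default dispersion (chosen after seeing the data, 1231 up and 1373 down over all genes) called 1 up, which was Ezh2, and DESeq2 called 2. Of the related genes, the exact test called 19 down, the legacy test 17 and DESeq2 18, beside 11. With total counts alone the log2 fold change turned to -0.0017 for Kdm2b, -0.0499 for Pcgf6 and -0.10 for Rybp, and Yaf2 lost its call. With no filter that of Ezh1 turned to 0.0126. With NOD 2 alone the values were -0.10 for Rybp, 0.13 for Ezh1 and -0.21 for Phf1, where the sign differed from that of both NOD libraries. Upper-quartile factors ended the calls of Asxl1, Asxl2, Kmt2c and Skp1a. With the exon-union length of GENCODE M21 in place of the listed length, Ezh2 stood at 5.56 times Ezh1 in B6, Jarid2 at 1.81 times Suz12 in B6 and 0.535 times in NOD, Mtf2 at 2.48 times Suz12 in B6, Cbx7 at 156.5 times Cbx2 in B6 and 1.10 times in NOD, and in NOD Yaf2 at 27.5 times Rybp and Kdm2b at 2.2 times Kdm2a. The length alone changes in these ratios. For the other settings the cause was not tested.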

Other observations

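Genes that Polycomb is known to silence were mostly at or near 0 in both strains. Of 68 developmental target genes in the table, 22 had no count in any library and 31 passed the filter on low counts. With edgeR, 1 fell and 0 rose (5 had an unadjusted p under 0.05), beside 7.39% down-regulated and 10.3% up-regulated over all genes tested. The gene that fell was Tbx3, a T-box factor also expressed in pluripotent cells and primitive endoderm, at 315.7 CPM in B6 and at 42.2 and 41.9 in NOD 1 and NOD 2 (log2 fold change -2.91, SE 0.25, edgeR adjusted p = 0.0196). Summed over the other 67 genes, levels were 35.7 CPM for B6, 59.7 for NOD 1 and 59.5 for NOD 2. Of the 31 tested genes, both NOD libraries lay above B6 for 16 and below it for 8, beside 45.3% and 39.4% over all genes tested. Their median log2 fold change was 1.70, or 0.58 with the 12 genes at 0 in B6 and the 1 at 0 in NOD set to the floor of 3 counts per library. Genes low in 1 strain could pass the filter through the other alone, so these values over the tested genes are a description.

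The 39 Hox genes, classical Polycomb targets that pattern the body axis, summed to 18.3 CPM for B6, 20.2 for NOD 1 and 28.8 for NOD 2. Of these, 19 were tested and 0 were called by edgeR, with 3 at an unadjusted p under 0.05. Hoxb13 had 0 counts in B6, against 36 in NOD 1 and 125 in NOD 2 (edgeR adjusted p = 0.0726). Hoxd4 had 24 counts in B6, against 4 in NOD 1 and 2 in NOD 2 (edgeR adjusted p = 0.110). No difference between the strains in a single Hox gene passed the threshold at these depths.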
